A study of Homo sapiens with 9 samples.

Results

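The genes described here encode the collagens, the laminins and the integrins, the proteins that build the extracellular matrix around a cell and the receptors that hold the cell to it. Their rows were chosen by symbol, as every collagen chain (COL followed by its type and chain), laminin chain (LAMA, LAMB, LAMC) and integrin chain (ITGA, ITGB) of the deposited tables. This gave 78 of 60623 genes, made up of 44 collagen, 12 laminin, 14 integrin alpha and 8 integrin beta genes. The 50 with a mean of at least 0.5 TPM over the 9 libraries are described, and TPM is a level per transcript length, scaled to the same total in each library. They are 24 collagen, 9 laminin, 11 integrin alpha and 6 integrin beta genes. COL21A1 at 0.52 TPM, ITGA4 at 0.55 and COL8A2 at 0.55 lay just inside that threshold, and COL13A1 at 0.473 and COL3A1 at 0.457 just outside it.

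RNA was sequenced from 22Rv1, a human prostate cancer cell line that expresses the androgen receptor. In all 3 groups the cells carried a short hairpin RNA against PDCD4, an inhibitor of the translation helicase eIF4A, and received back wild-type PDCD4 (WT), PDCD4-S239A, in which a serine is replaced by alanine, or PDCD4-S239D, in which it is replaced by aspartate. The first change removes the hydroxyl that a kinase can phosphorylate, and the second is commonly used to mimic a phosphorylated residue. The series concerns phosphorylation of PDCD4 by the kinase PLK1 and resistance to the antiandrogen enzalutamide, and its design text names the comparison of the variants with the wild type. Each group had 3 libraries, whose labels do not say whether they came from separate cultures or clones, so p-values measure the spread between these libraries, which may be technical. No drug treatment is named in the labels, and cells without the hairpin or without rescue were not analysed here.

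Every collagen is a trimer of alpha chains, of which some types (such as I, IV, VI and IX) combine the products of several genes. Fibrillar collagens make up the fibres of stroma, collagen IV forms the sheet of basement membranes, and the fibril-associated collagens coat fibres without forming them. A laminin is a trimer of an alpha, a beta and a gamma chain, and an integrin is a dimer of an alpha and a beta chain whose pairing sets what it binds. In normal prostate, basal cells sit on a basement membrane through laminin-binding integrins in hemidesmosomes, and loss of that basal layer is a known feature of prostate cancer.

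Total counts ran from 5696841 to 9688554 per library, so a floor of 3 counts was 0.307 to 0.527 CPM (counts scaled to library size). On the first principal component of log2 CPM, which held 56.8% of the variance, the S239D libraries lay at 55.2 to 58.7 and the other 6 at -33.5 to -24.7. The second component set S239A replicate 2 (-35.8) and S239D replicate 2 (-27.3) apart from the other 7 libraries (2.81 to 17.5), and these 2 also had the largest share of mitochondrial counts of their groups (5.38% and 6.01%). That share was 2.83% to 3.04% in WT, 2.99% to 5.38% in S239A and 4.72% to 6.01% in S239D, so it was higher in every S239D library than in every WT library, and its part in the differences between those groups was not tested. Results that those 2 libraries change are given with and without them. PDCD4 itself stood at 24.1, 24.9 and 20.4 CPM in WT, 19.0, 23.1 and 24.998 in the S239A libraries and 16.8, 17.1 and 17.0 in those of S239D, which does not check the labels because the 3 forms of the transcript were not counted apart. By edgeR's test its log2 level in S239D was lower than in WT (-0.44, adjusted p = 0.0164) and than in S239A (-0.40, adjusted p = 0.0245). S239D thus differed in PDCD4 counts as well as in the residue, and the part of that difference in the results was not tested. Per length PDCD4 stood at 15.1 ± 2.94 TPM in WT, 14.3 ± 4.46 TPM in S239A and 12.1 ± 2.47 TPM in S239D (SD, n = 3 each), and the libraries of the groups overlapped. All 11 luminal prostate markers reached a mean of 1 TPM, with a summed level of 3683 to 3769 TPM in WT, 3812 to 4290 in S239A and 2760 to 2816 in S239D. Of 10 fibroblast and smooth muscle markers 4 reached that level, FAP was at 0 TPM, and the sum was 107 to 112, 97.2 to 112 and 108 to 125 TPM. Of 6 basal epithelial markers 3 did, with sums of 15.1 to 19.0, 21.8 to 23.9 and 14.2 to 20.5 TPM. In S239D against WT the basal markers KRT15 (0.84, adjusted p = 0.0221) and DST (0.45, adjusted p = 0.01) rose and NGFR fell (-2.48, adjusted p = 8.93e-07) by edgeR's test, while KRT5, KRT14 and TP63 were below 1 TPM on average. None of 6 endothelial markers reached that level (CDH5 at 0), and 1 of 6 leukocyte markers did (CD3E at 0).

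The laminin and integrin chains that the cells held most of were those of broadly expressed trimers and dimers. LAMB2, the beta chain of many mature basement membranes, had the highest mean of all 50 genes at 130.6 TPM, followed by ITGB1, the beta chain shared by most matrix-binding integrins, at 110.0, LAMC1, the common gamma chain, at 87.4, ITGB5, the partner of ITGAV in a vitronectin receptor, at 57.6, and LAMA5 at 48.4. The LAMA5, LAMB1, LAMB2 and LAMC1 chains make up laminins of many adult epithelia. Among collagens, COL7A1, the chain of the anchoring fibrils beneath epithelia, led with 42.1 TPM, ahead of COL6A1 (39.1 TPM), the first chain of the beaded filament collagen VI. ITGAE, the chain that binds E-cadherin, led the alpha chains at 28.4 TPM, on 7.13 to 11.0 CPM. This order is per transcript length and differs in CPM, which is not divided by length. In mean CPM of WT, ITGAE (8.94) was below ITGAV (94.4) and ITGA5 (69.9), and LAMB2 (168) was below LAMC1 (407) and ITGB1 (314).

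The chains of a trimer were far from equal in level. COL1A1 stood at 13.7 TPM and its partner COL1A2 at 0.267. COL4A2 stood at 1.01 TPM and COL4A1, with which it forms the common collagen IV, at 0.0311. In collagen VI, COL6A1 (39.1 TPM) exceeded COL6A2 (10.4) and COL6A3 (0.173), and in collagen IX, COL9A3 (29.4 TPM) exceeded COL9A2 (4.91) and COL9A1 (0.69). Summed over the described genes of a family, collagen levels were 149 ± 2.64 TPM for WT, 155 ± 22.3 for S239A and 257 ± 14.4 for S239D (SD, n = 3). Laminin sums were 260 ± 6.29, 311 ± 12.3 and 299 ± 36.3 TPM, alpha chain sums 108 ± 1.05, 124 ± 4.87 and 104 ± 7.97, and beta chain sums 183 ± 9.23, 168 ± 9.05 and 170 ± 16.2 (SD, n = 3 each). The collagen sum was the only one of the 4 in which every S239D library lay above every WT and S239A library. A few genes carried its rise. COL7A1 went from 20.5 ± 4.20 TPM in WT to 82.1 ± 14.4 TPM in S239D (SD, n = 3 each). COL6A1 went from 32.3 ± 1.53 TPM to 55.8 ± 6.13 TPM and COL4A5 from 10.1 ± 2.14 TPM to 23.7 ± 9.63 TPM. COL1A1 went from 13.9 ± 3.26 TPM to 9.37 ± 1.84 TPM (SD, n = 3 each). The lower COL1A1 level was not seen in counts, with a mean of 28.7 CPM in WT and 30.6 in S239D. By edgeR's test its log2 fold change was 0.09 (adjusted p = 0.598). In counts COL7A1 rose by 1.49 on the log2 scale, less than in TPM.

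**Figure D1:**
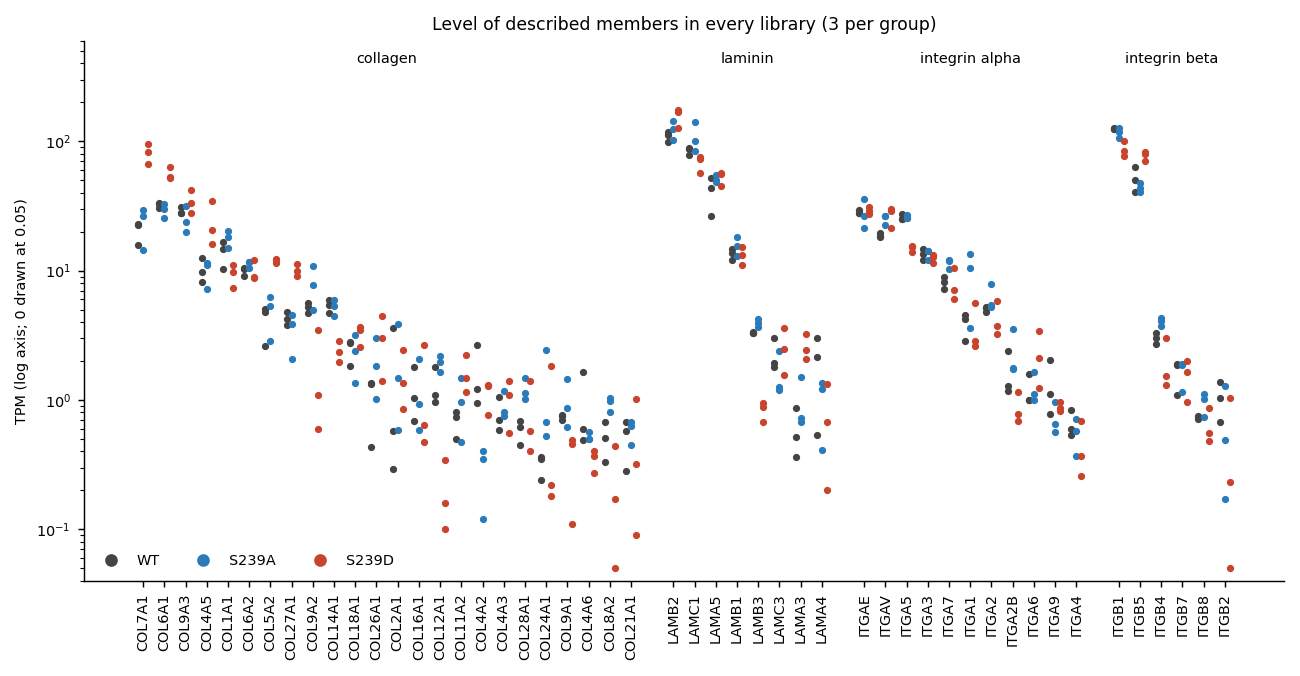
Level of the described genes in TPM (vertical log axis, 0 drawn at 0.05) by gene (horizontal axis, ordered by mean level within each family), with 1 point per library coloured by group and 1 gene not shown. Levels run from LAMB2 at a mean of 130.6 TPM to COL21A1 at 0.52, and COL9A2 and COL12A1 show S239D points below those of both other groups.

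In cells rescued with S239D, the genes of these families moved in both directions relative to WT, and partner chains of a single trimer moved apart. LAMA3 and COL7A1 rose most, and COL9A2, COL12A1 and LAMB3 fell most. Of the 49 genes that could be tested (LAMA4 had too few counts), 9 rose and 15 fell by edgeR's quasi-likelihood test at an adjusted p under 0.05. That is 18.4% higher and 30.6% lower, beside a background of 19.7% higher and 21.7% lower among all 16213 genes tested. Their median log2 fold change was -0.31, against 0.00075 over all genes. The test of limma on log2(TPM + 1), a level per length, kept 14 of these 24 calls. Of the genes that rose it lost only COL11A2, so the larger number of falls was not seen per length. Collagens divided almost evenly (6 higher, 5 lower of 24), while 1 laminin of 8 rose and 3 fell, 1 alpha chain of 11 rose and 5 fell, and 1 beta chain of 6 rose and 2 fell. A lower level in bulk RNA cannot be told apart from fewer cells that express the gene.

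**Figure D2:**
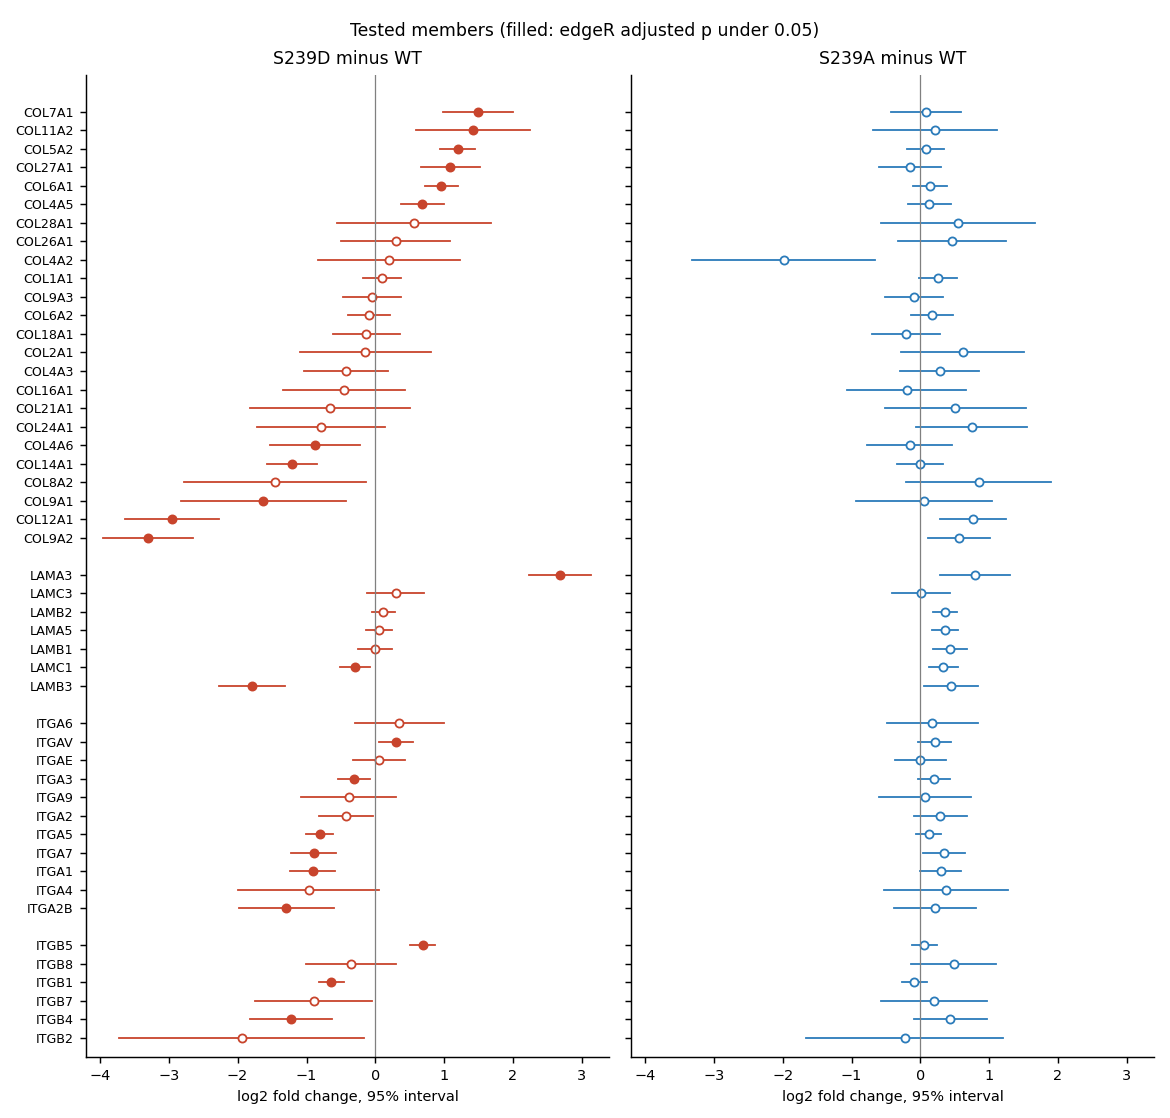
Log2 fold change with its 95% interval (horizontal axis) for the tested genes (vertical axis, by family, 1 gene not shown), for S239D minus WT on the left and S239A minus WT on the right, filled where the adjusted p was under 0.05. On the left filled points lie on both sides of 0, from LAMA3 at 2.69 to COL9A2 at -3.30, and on the right none is filled.

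Among the laminins, LAMA3 and LAMB3, which join in a laminin that anchors epithelia at hemidesmosomes, changed in opposite directions. LAMA3, the alpha chain (chr18:23689443-23956222), was at 2.93, 2.63 and 1.93 CPM in WT, 5.18, 4.18 and 3.69 in the S239A libraries and 15.1, 17.8 and 15.4 in those of S239D. All S239D libraries lay above all others, and the group did not overlap WT, as was so for 53.9% of all tested genes (49.8% against S239A). The log2 fold change over WT was 2.69 (SE 0.21, adjusted p = 4.41e-07). LAMB3, the beta chain (chr1:209614870-209652425), was at 6.29, 7.02 and 8.05 CPM in WT, 9.88, 10.7 and 8.61 in the S239A libraries and 2.08, 1.73 and 2.31 in those of S239D. Here every S239D library lay below every other, and the log2 fold change was -1.79 (SE 0.22, adjusted p = 2.74e-05). Per length, LAMA3 went from 0.580 ± 0.255 TPM to 2.58 ± 0.574 TPM and LAMB3 from 3.31 ± 0.0351 TPM to 0.833 ± 0.146 TPM (SD, n = 3 each). The widely expressed chains differed less. LAMC1, at 415, 407 and 399 CPM in WT, 480.3, 608 and 452 in the S239A libraries and 312, 352 and 334 in those of S239D, fell by 0.29 on the log2 scale (SE 0.10, adjusted p = 0.0314), a call that was lost without any one of WT replicates 1, 2 and 3 or S239D replicates 1 and 3 (adjusted p = 0.0972, 0.0795, 0.0693, 0.102 and 0.0803) and in limma (-0.32, adjusted p = 0.218). LAMB2, at 168, 166 and 169 CPM in WT, 205, 235 and 205 in the S239A libraries and 185, 176 and 185 in those of S239D, differed from WT by 0.12 (SE 0.08, adjusted p = 0.254). That difference passed in limma on log2(TPM + 1) (0.49, adjusted p = 0.0416) and without S239A replicate 2 and S239D replicate 2 (0.14, adjusted p = 0.0222). With all libraries neither LAMA5 (0.05, adjusted p = 0.668) nor LAMB1 (-0.0027, adjusted p = 0.988) passed the test, and without those 2 libraries LAMA5 did (0.14, adjusted p = 0.0347).

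The promoter windows of LAMA3 and LAMB3 are shown because these partner chains changed in opposite directions. Each is the 250 bases before a RefSeq start, 5′ to 3′ on the gene's strand, on GRCh38.p14, at chr18:23872770-23873019 (plus strand) and chr1:209652426-209652675 (minus strand). The LAMA3 window belongs to the RefSeq start given for that gene, which lies 183577 bases inside the gene as listed in the deposited table. Capitals mark letters that match one of 6 motifs searched on both strands.
LAMA3: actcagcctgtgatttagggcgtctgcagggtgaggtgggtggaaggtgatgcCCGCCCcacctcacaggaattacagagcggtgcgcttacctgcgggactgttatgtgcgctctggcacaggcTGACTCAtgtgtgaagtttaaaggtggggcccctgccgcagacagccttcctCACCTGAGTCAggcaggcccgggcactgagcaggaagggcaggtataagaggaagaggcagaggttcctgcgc
LAMB3: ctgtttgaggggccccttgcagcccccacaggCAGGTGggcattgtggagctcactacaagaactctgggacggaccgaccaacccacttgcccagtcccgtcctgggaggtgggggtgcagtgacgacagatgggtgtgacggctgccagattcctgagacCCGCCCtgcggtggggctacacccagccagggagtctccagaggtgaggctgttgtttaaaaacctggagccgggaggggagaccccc
The LAMA3 window held the AP-1 letters TGANTCA at 2 places, 125 to 119 and 69 to 63 bases before the start, and LAMB3 held none. The nearer match overlaps the letters CACCTG, the reverse complement (the reading of the other strand) of the E-box CAGGTG that ZEB and SNAI repressors are known to bind. LAMB3 held CAGGTG at 218 to 213 bases before its start. Both windows held a GC box (CCGCCC, the reverse complement of GGGCGG). LAMA3 was the only 1 of 37 described genes with a RefSeq window to hold TGANTCA, which occurred in 6.57% of 35116 promoters of the same length. The GC box occurred in 22 of the 37 (42.64% of all promoters), CAGGTG in 8 (17.49%), CCAAT in 6 (32.01%), TATAAA in 3 (10.72%) and the E-box CACGTG in 1 (6.34%). A match describes the letters and not the binding of a factor.

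Collagens that rose in S239D included the chain of anchoring fibrils, a collagen VI chain and several fibrillar chains. COL7A1 was at 66.6, 57.6 and 64.3 CPM in WT, 72.7, 37.9 and 89.4 in the S239A libraries and 206, 128 and 198 in those of S239D, a log2 fold change of 1.49 (SE 0.23, adjusted p = 0.000195). The replicate 2 libraries of S239A and S239D were the lowest of their groups, and every S239D library still lay above every WT and S239A library. COL6A1 was at 60.3, 55.0 and 58.9 CPM in WT, 67.3, 55.1 and 69.7 in the S239A libraries and 128, 100 and 112 in those of S239D, and rose by 0.96 (SE 0.11, adjusted p = 1.64e-05). Its partner COL6A2, in the same filament, was at 22.0, 25.1 and 25.3 CPM in WT, 27.5, 25.1 and 28.3 in the S239A libraries and 28.0, 19.5 and 20.3 in those of S239D, with overlapping groups and a difference of -0.09 (SE 0.14, adjusted p = 0.631). COL5A2, a chain of the collagen V that sets the width of collagen I fibrils, was at 13.1, 16.7 and 14.3 CPM in WT, 15.4, 15.9 and 14.9 in the S239A libraries and 33.4, 33.2 and 33.4 in those of S239D. Its 3 S239D libraries were almost equal and above all others, a log2 fold change of 1.19 (SE 0.12, adjusted p = 3.98e-06). COL27A1, a fibrillar collagen of cartilage, was at 19.8, 20.5 and 21.3 CPM in WT, 19.5, 12.0 and 23.6 in the S239A libraries and 52.1, 33.2 and 46.1 in those of S239D, and rose by 1.09 (SE 0.20, adjusted p = 0.000656). Both replicate 2 libraries were again the lowest of their groups. COL11A2, a cartilage fibrillar chain at 1.09 TPM, rose by 1.42 (SE 0.39, adjusted p = 0.00893), and its call was lost without S239D replicate 1 (adjusted p = 0.0537) and in limma on log2(TPM + 1) (0.62, adjusted p = 0.123). The other described fibrillar chains, COL1A1 (0.09, adjusted p = 0.598), COL2A1 (-0.15, adjusted p = 0.817) and COL24A1 (-0.79, adjusted p = 0.162), did not pass by edgeR's test. COL24A1 was lower in S239D than in S239A (-1.54, adjusted p = 0.00684).

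Fibril-associated collagens made up 4 of the 5 collagens that fell. COL9A2, a chain of collagen IX, was at 8.24, 7.37 and 8.73 CPM in WT, 12.96, 8.24 and 14.9 in the S239A libraries and 0.980, 0.740 and 0.735 in those of S239D. The S239D libraries held 6 to 8 counts each, and the log2 fold change was -3.30 (SE 0.31, adjusted p = 2.13e-06), the largest decrease of the 49 genes. COL9A1, its partner, was at 1.19, 1.23 and 1.59 CPM in WT, 2.10, 0.860 and 1.23 in the S239A libraries and 0.122, 0.617 and 0.525 in those of S239D, a log2 fold change of -1.63 (SE 0.56, adjusted p = 0.0304) that was lost without any one of WT replicates 1, 2 and 3 or S239D replicates 1 and 3 (adjusted p = 0.0577, 0.0547, 0.104, 0.109 and 0.0572). COL9A3, the most abundant chain of that trimer, was at 18.0, 17.6 and 17.5 CPM in WT, 14.9, 13.2 and 21.2 in the S239A libraries and 21.4, 12.5 and 17.2 in those of S239D, and its groups overlapped, with a difference of -0.05 (SE 0.20, adjusted p = 0.854). COL12A1, which bridges fibrils in tendon and other dense tissue, was at 6.07, 4.39 and 7.48 CPM in WT, 11.6, 10.7 and 8.71 in the S239A libraries and 0.735, 0.493 and 1.05 in those of S239D, a log2 fold change of -2.95 (SE 0.32, adjusted p = 8.85e-06). COL14A1, a related fibril-associated chain, was at 17.4, 21.2 and 21.8 CPM in WT, 18.5, 23.0 and 18.5 in the S239A libraries and 7.47, 10.7 and 7.87 in those of S239D, and changed by -1.21 (SE 0.17, adjusted p = 7.17e-05). In both, each S239D library lay below each WT and S239A library. The fibril-associated COL16A1 (-0.46, adjusted p = 0.396) and COL21A1 (-0.66, adjusted p = 0.35) did not pass.

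**Figure D3:**
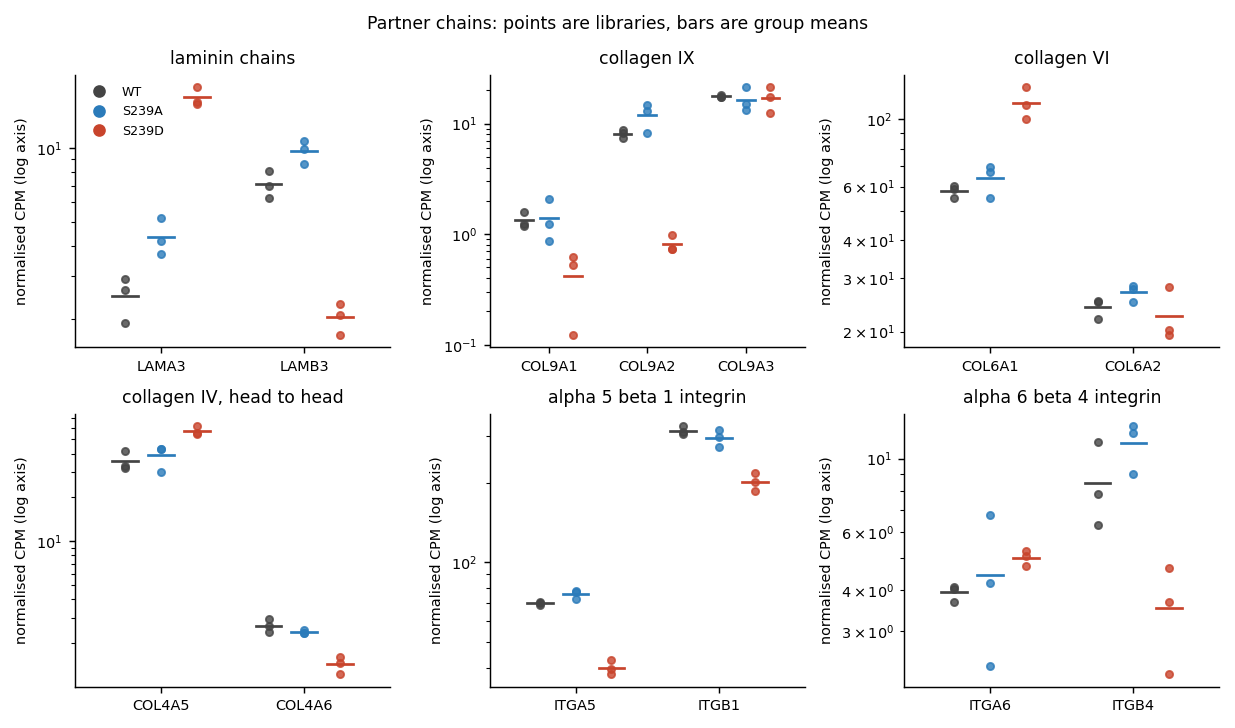
Normalised CPM (vertical log axis) of chains that share a trimer or dimer (1 panel each, chains on the horizontal axis), with points for libraries and bars for group means. S239D points lie above the others for LAMA3 and COL6A1 and below them for LAMB3, COL9A2 and ITGA5.

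In S239D the counts of the fibronectin receptor chains and of some chains of collagen and laminin receptors fell. Those of ITGB5 and ITGAV, which form a vitronectin receptor, rose over WT, though only ITGB5 was also called against S239A. ITGB1, the shared beta chain, was at 326, 311 and 305 CPM in WT, 297, 317 and 273 in the S239A libraries and 186, 217 and 201 in those of S239D, a log2 fold change of -0.64 (SE 0.08, adjusted p = 4.51e-05), with every S239D library below all others. ITGA5, its partner in the fibronectin receptor, was at 70.3, 70.8 and 68.7 CPM in WT, 72.8, 77.2 and 78.0 in the S239A libraries and 42.6, 39.3 and 37.7 in those of S239D, and changed by -0.81 (SE 0.09, adjusted p = 9.97e-06). ITGA1, its partner in a collagen receptor, was at 18.7, 17.2 and 17.3 CPM in WT, 21.8, 25.1 and 18.6 in the S239A libraries and 8.08, 10.5 and 9.76 in those of S239D, and changed by -0.91 (SE 0.15, adjusted p = 0.000327). ITGA7, a laminin receptor chain best known in muscle, was at 14.8, 12.3 and 15.0 CPM in WT, 18.9, 15.6 and 19.1 in the S239A libraries and 7.47, 7.03 and 8.19 in those of S239D, and changed by -0.90 (SE 0.15, adjusted p = 0.000397). In these 4 genes each S239D library was below each WT and S239A library in CPM. Limma on log2(TPM + 1) called neither ITGA1 (-0.10, adjusted p = 0.877) nor ITGA7 (-0.066, adjusted p = 0.829). ITGA3, a laminin receptor chain of epithelia, was at 41.3, 39.2 and 39.0 CPM in WT, 42.0, 49.7 and 45.6 in the S239A libraries and 36.0, 30.7 and 29.9 in those of S239D, and changed by -0.31 (SE 0.11, adjusted p = 0.0357), a call lost without any one of WT replicates 1, 2 and 3 or S239D replicates 2 and 3 (adjusted p = 0.121, 0.0732, 0.0765, 0.0712 and 0.144) and in limma (-0.090, adjusted p = 0.644). ITGA2, another collagen receptor chain, was at 24.1, 27.6 and 26.5 CPM in WT, 26.7, 39.9 and 28.8 in the S239A libraries and 14.6, 24.5 and 18.9 in those of S239D, a difference of -0.43 (SE 0.18, adjusted p = 0.0784). That difference passed without S239D replicate 2 (adjusted p = 0.0132) or S239A replicate 2 (0.0369), and without both (-0.62, adjusted p = 0.000232).

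The hemidesmosome integrin joins ITGA6 to ITGB4. ITGB4 was at 6.29, 11.2 and 7.82 CPM in WT, 9.01, 12.5 and 12.0 in the S239A libraries and 4.65, 2.22 and 3.67 in those of S239D, and fell, with a log2 fold change of -1.23 (SE 0.28, adjusted p = 0.00293). Limma on log2(TPM + 1) did not call it (-0.49, adjusted p = 0.152). ITGA6 was at 3.68, 4.04 and 4.08 CPM in WT, 2.35, 6.76 and 4.20 in the S239A libraries and 5.27, 5.06 and 4.72 in those of S239D, where the S239D libraries lay above those of WT and overlapped those of S239A, and the difference from WT was 0.35 (SE 0.31, adjusted p = 0.38). Of that receptor and the laminin chains above, ITGB4 and LAMB3 were thus lower and LAMA3 higher. ITGB5 was at 109, 118 and 125 CPM in WT, 129, 124 and 113 in the S239A libraries and 199, 179.8 and 189 in those of S239D, and rose by 0.69 (SE 0.09, adjusted p = 2.75e-05), all S239D libraries being above all others. ITGAV, the alpha chain of the vitronectin receptors, was at 101, 93.6 and 88.3 CPM in WT, 104, 119 and 104 in the S239A libraries and 106, 139 and 104 in those of S239D. It rose by 0.30 (SE 0.11, adjusted p = 0.0449) and lost its call without any one of WT replicates 1, 2 and 3, S239A replicates 1 and 3 or S239D replicate 2 (adjusted p = 0.0571, 0.114, 0.161, 0.0584, 0.0505 and 0.177). Against S239A, ITGAV in S239D did not pass edgeR's test (0.096, adjusted p = 0.518), whereas ITGB5 did (0.63, adjusted p = 4.71e-05). ITGB8, the partner of ITGAV in a receptor that activates TGF-beta, was at 4.66, 3.51 and 3.74 CPM in WT, 3.46, 6.39 and 6.86 in the S239A libraries and 2.45, 4.07 and 2.94 in those of S239D, a difference of -0.35 (SE 0.31, adjusted p = 0.385). ITGA2B, the platelet fibrinogen receptor chain, was low (1.62 TPM) and changed by -1.29 (SE 0.32, adjusted p = 0.00537), a call lost in limma on log2(TPM + 1) (-0.46, adjusted p = 0.261). ITGAE was at 9.21, 8.78 and 8.84 CPM in WT, 8.64, 7.13 and 11.0 in the S239A libraries and 9.06, 9.13 and 9.76 in those of S239D, a difference of 0.06 (SE 0.18, adjusted p = 0.815). The lymphocyte chains ITGA4 (-0.97, adjusted p = 0.118), ITGB7 (-0.90, adjusted p = 0.0856) and ITGB2 (-1.94, adjusted p = 0.076) and the tenascin-binding ITGA9 (-0.39, adjusted p = 0.361) did not pass. ITGB7 passed without WT replicate 1 (adjusted p = 0.0399), ITGB2 without WT replicate 3 (0.0418) and the collagen COL8A2 without S239D replicate 1 (0.0122, against 0.0721 with all libraries).

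Several of these genes lie beside each other in the genome, and neighbours did not always move together. COL4A5 and COL4A6 encode chains of the collagen IV network of skin and smooth muscle and start 347 bases apart in the deposited table, on opposite strands of chromosome X. COL4A5 was at 41.6, 32.7 and 31.8 CPM in WT, 43.1, 30.0 and 43.2 in the S239A libraries and 54.6, 55.0 and 61.5 in those of S239D, and rose by 0.69 (SE 0.14, adjusted p = 0.00176). COL4A6 was at 2.93, 2.63 and 2.38 CPM in WT, 2.35, 2.34 and 2.46 in the S239A libraries and 1.22, 1.60 and 1.47 in those of S239D, and changed by -0.88 (SE 0.31, adjusted p = 0.0332), so the chains moved in opposite directions. The call of COL4A6 was lost without any one of WT replicates 1, 2 and 3 or S239D replicates 1 and 3 (adjusted p = 0.112, 0.0654, 0.0534, 0.0949 and 0.0747) and with a replicate block (0.0544). Their promoter windows are shown because the starts lie so close that the windows share sequence. On GRCh38.p14 the 250 bases before each RefSeq start are chrX:108439588-108439837 (plus strand) and chrX:108439459-108439708 (minus strand), and 121 bases are common to both.
COL4A5: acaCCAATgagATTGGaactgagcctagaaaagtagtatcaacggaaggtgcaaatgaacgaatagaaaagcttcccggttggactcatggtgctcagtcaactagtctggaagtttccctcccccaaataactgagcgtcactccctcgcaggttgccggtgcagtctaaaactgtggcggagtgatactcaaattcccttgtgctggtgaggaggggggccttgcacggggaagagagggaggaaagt
COL4A6: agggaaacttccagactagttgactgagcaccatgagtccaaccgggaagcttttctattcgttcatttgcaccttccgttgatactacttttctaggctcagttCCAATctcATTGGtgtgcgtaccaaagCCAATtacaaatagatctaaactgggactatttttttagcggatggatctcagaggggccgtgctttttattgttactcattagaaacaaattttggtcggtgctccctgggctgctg
Capitals mark CCAAT and its reverse complement ATTGG. The pair CCAAT and ATTGG lies in the shared stretch, 247 to 235 bases before the COL4A5 start and 145 to 133 before that of COL4A6, and COL4A6 holds a further CCAAT at 118 to 114.

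The other neighbours within 500 kb gave mixed pairs as well. COL5A2 rose (1.19) beside COL3A1, a fibrillar chain under the TPM threshold (-1.13, adjusted p = 0.119). COL6A1 rose (0.96) beside COL6A2 (-0.09, adjusted p = 0.631). ITGA1 fell (-0.91) beside ITGA2 (-0.43, adjusted p = 0.0784). COL4A3 and COL4A4, whose starts lie 112 bases apart, differed by -0.42 and -0.52 (adjusted p = 0.254 and 0.237). Neighbours of other families within 1 Mb also shifted around some of the genes. Around COL7A1, 25 of 47 tested genes rose and 1 fell (median 0.31), around LAMA3 7 of 11 rose and 1 fell (0.44), and around ITGB5 7 of 10 rose and none fell (0.49). Around LAMC1, 1 of 15 rose and 7 fell (median -0.50), and around COL5A2, which rose, none of 11 rose and 4 fell (-0.27). Over all tested genes 19.7% rose and 21.7% fell. These windows are examples with large shifts, and further windows ran against their gene. Beside COL4A5, which rose, 0 of 8 rose and 3 fell (-0.20). Beside ITGB4, which fell, 21 of 71 rose and 13 fell (0.08). Beside ITGB2, which was lower without passing the test, 10 of 25 rose and 3 fell (0.18). Over all tested genes of chromosome 3, which holds COL7A1, LAMB2, ITGB5 and ITGA9, the median was 0.22. The part of such regional shifts in the single genes' changes was not tested.

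**Figure D4:**
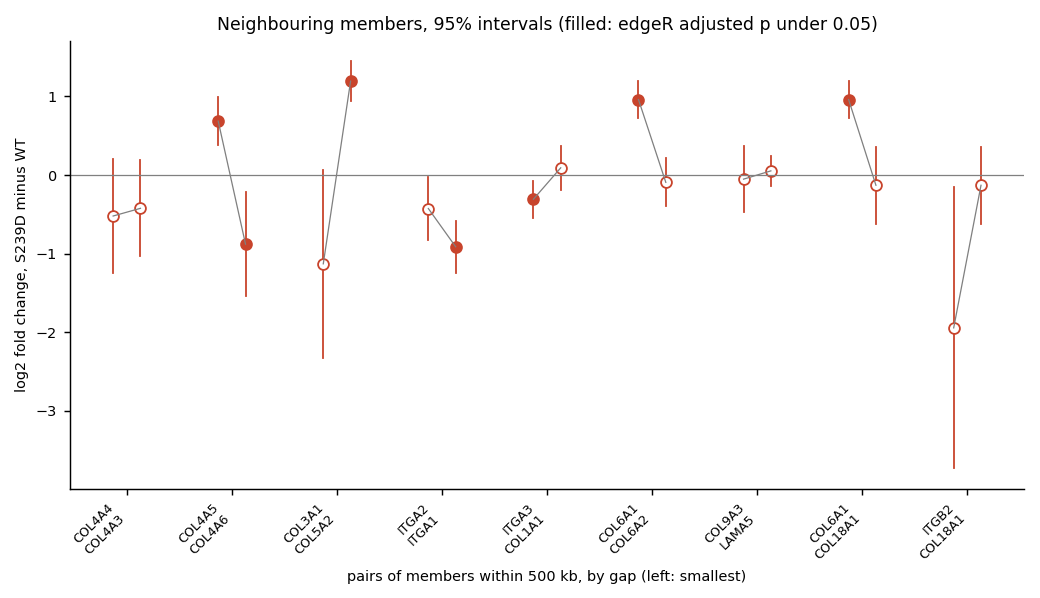
Log2 fold change of S239D minus WT (vertical axis) with its 95% interval, for both genes of the tested pairs within 500 kb (horizontal axis), filled where the adjusted p was under 0.05. COL4A5 (0.69) and COL4A6 (-0.88) stand on opposite sides of 0, while ITGA2 (-0.43) and ITGA1 (-0.91) both lie below it.

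Transcript length also went with the direction of change. The tested genes were divided by length into 4 classes of equal size. Of the class with the longest transcripts, 30.8% rose and 17.8% fell in S239D, against 10.7% and 23% of the class with the shortest. Of the 49 genes of these families, 28 belonged to the longest class and 0 to the shortest. Unlike that longest class, these 49 genes fell more often than they rose (18.4% higher and 30.6% lower). The part of length in their changes was not tested. RSEM's TPM divides each count by an effective length that depends on the isoforms it assigned, so the count per TPM, scaled within each library, shows shifts in that length. Among the 25 of these genes with enough counts, 6 had S239D values that did not overlap those of WT (background 14.7% of 12516 genes), and 3 shifted by over 0.5 on the log2 scale (background 1.65%). Those 3 were COL1A1 (0.73, longer in S239D), ITGA7 (-0.72) and ITGA1 (-0.69). The ITGA1 values of S239D overlapped those of WT, and its shift in S239A was -0.78 (SD 0.81, n = 3). For COL7A1 the shift was -0.45. For ITGA7 and ITGA1 the length shift was nearly as large as the fall in counts, and their TPM in S239D was 7.82 ± 2.30 TPM and 3.68 ± 1.66 TPM, against 8.07 ± 0.890 TPM and 3.89 ± 0.917 TPM in WT (SD, n = 3 each). Their fall in reads was therefore not seen per length, and limma on log2(TPM + 1) called neither.

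Rescue with S239A left these genes closer to WT. By edgeR's test none of the 49 rose or fell, and over all 16213 genes 1 was called (0.00617%), with 1583 (9.76%) at an unadjusted p under 0.05. The log2 fold changes leaned upwards all the same, with 40 of 49 positive (81.6%, against 50.3% of all tested genes) and a median of 0.21 (0.0017 over all genes). All 8 tested laminins and all 11 alpha chains had a positive value. LAMA3 was 0.80 higher (adjusted p = 0.294), COL12A1 0.76 (0.293), LAMB1 0.43 (0.255), LAMB2 0.36 (0.201), LAMA5 0.36 (0.248) and LAMC1 0.33 (0.294) on the log2 scale, each with every S239A library above every WT library, a lack of overlap that 19.5% of all tested genes showed. COL4A2 had the lowest value, -1.99 (adjusted p = 0.308), on 1.73, 0.527 and 0.907 CPM in WT, 0.370, 0.123 and 0.307 in the S239A libraries and 1.47, 0.863 and 1.47 in those of S239D.

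More genes were called in S239A with another tool, or without both libraries that stood apart on the second component. DESeq2 called 2 of the 49 higher, LAMB2 (0.36, adjusted p = 0.0136) and LAMA5 (0.36, adjusted p = 0.0403), beside a background of 0.228% higher. Leaving out any single library, S239A replicate 2 included, edgeR called none. Without S239A replicate 2 and S239D replicate 2 together, a setting chosen after seeing the data, it called 7 higher and 0 lower, where the background was 2.68% higher and 2.62% lower. These were COL9A2 (0.77), COL1A1 (0.36), COL7A1 (0.36), LAMB1 (0.30), LAMA5 (0.30), LAMB2 (0.29) and LAMC1 (0.19). The laminins in that list, LAMA5, LAMB1, LAMB2 and LAMC1, are the 4 most abundant laminin chains of the cells.

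Set directly against S239A, S239D gave 9 higher and 23 lower of the 49 genes (18.4% and 46.9%) by edgeR's test, beside a background of 20.9% higher and 22.7% lower, and the median was -0.51 (0.0099 over all genes). This comparison shares its S239D libraries with that against WT, so the values are given side by side only. Laminins had 1 higher and 6 lower of 8, alpha chains 0 and 7 of 11, beta chains 1 and 4 of 6, and collagens 7 and 6 of 24. LAMA3 was higher by 1.89 (SE 0.19, adjusted p = 3.42e-06) and LAMB3 lower, at -2.23 (SE 0.22, adjusted p = 2.27e-06). COL9A2 (-3.86 (SE 0.29, adjusted p = 2.49e-07)) and COL12A1 (-3.71 (SE 0.30, adjusted p = 4.94e-07)) were lower. The widely expressed laminins were lower too, LAMC1 by -0.63 (SE 0.10, adjusted p = 0.000207), LAMB1 by -0.43 (SE 0.11, adjusted p = 0.00674), LAMA5 by -0.30 (SE 0.09, adjusted p = 0.0136) and LAMB2 by -0.24 (SE 0.08, adjusted p = 0.0233). LAMB2 lost its call without S239A replicate 2 (adjusted p = 0.058) or S239D replicate 3 (0.06), and its sign turned in limma on log2(TPM + 1), where it was 0.33 (adjusted p = 0.138). LAMA5 also turned there (0.029, adjusted p = 0.935), and LAMB1 lost its call (-0.23, adjusted p = 0.328). ITGA2, which had missed the threshold against WT, was lower at -0.72 (SE 0.18, adjusted p = 0.00549). COL4A2 was higher (2.18 (SE 0.60, adjusted p = 0.00933)), on fewer than 2 CPM in every library. Neither was called by limma on log2(TPM + 1), where ITGA2 was at -0.46 (adjusted p = 0.147) and COL4A2 at 0.72 (adjusted p = 0.0965). By limma on log2(TPM + 1), 10 of 42 tested members were lower, beside a background of 11%, and against WT 6 of 42 were lower, beside 10.5%.

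The genes that fold, join, cut or read these matrix proteins were taken from 5 lists. None of their members was called in S239A against WT. In S239D against WT, of 29 tested matrix ligands 3 rose and 13 fell (10.3% and 44.8%, beside 19.7% and 21.7% of all tested genes, median -0.51), including the elastic fibre protein EFEMP1 (-3.35, adjusted p = 4.84e-06), the matricellular CCN2 (-2.30, adjusted p = 8.93e-07) and TGFBI (-2.16, adjusted p = 0.000417). FN1, fibronectin, the ligand of the ITGA5 dimer, changed by -0.75 (adjusted p = 0.000205), and NID1, which links laminin to collagen IV, by -0.70 (adjusted p = 4.34e-05). Of 19 other matrix receptors and integrin partners 1 rose, SLC3A2 (0.92, adjusted p = 2.06e-05), and 9 fell (5.26% and 47.4%, median -0.39), among them the adhesion molecule MCAM (-1.77, adjusted p = 2.89e-06) and the syndecan SDC4 (-1.06, adjusted p = 1.81e-05).

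Of 26 genes of collagen folding and crosslinking 5 rose and 7 fell (19.2% and 26.9%, near the 19.7% and 21.7% of all tested genes, median -0.083), with the crosslinking oxidase LOX at -1.48 (adjusted p = 4.98e-05), the procollagen protease enhancers PCOLCE at -0.89 (adjusted p = 0.00053) and PCOLCE2 at 0.99 (adjusted p = 0.000513). Of 39 integrin adaptors and focal adhesion proteins 11 rose and 5 fell (28.2% and 12.8%, median -0.0017). FERMT1, a kindlin that activates integrins, rose (0.94, adjusted p = 7.2e-05), whereas TNS4 (-1.51, adjusted p = 7.47e-06) and TGFB1I1 (-0.94, adjusted p = 0.0346) fell. Of 26 matrix proteases and inhibitors 3 rose and 12 fell (11.5% and 46.2%, median -0.29), with MMP17 at -2.27 (adjusted p = 7.8e-08) and ADAMTS9 at -1.83 (adjusted p = 0.00373). MMP9 was also called lower, but had 0 or 1 counts in each S239D library, so no fold is given. These p-values are edgeR's, adjusted over all genes.

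**Figure D5:**
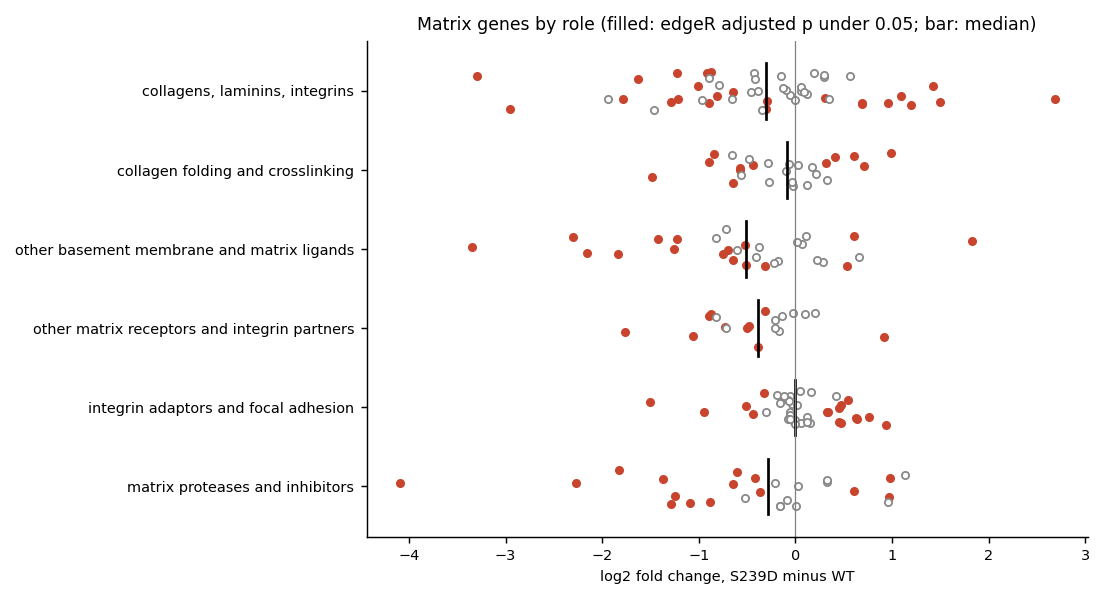
Log2 fold change of S239D minus WT (horizontal axis) for each tested gene of these families (top row) and of the 5 related lists (vertical axis), filled where the adjusted p was under 0.05, with a bar at each list's median. Matrix ligands have the lowest list median (-0.51), and integrin adaptors lie around 0 (-0.0017). The lowest point, MMP9, rests on 0 or 1 counts in each S239D library.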

How the data were processed

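RNA was measured in 9 libraries of 22Rv1 cells, 3 per group, from poly-T selected RNA with random hexamer priming, as the labels' protocols state. The values deposited by the authors are expected counts of each gene, not normalized between libraries, and TPM, scaled within each library. The submitters' processing notes name Trimmomatic 0.39 and RSEM, a program that makes both. The aligner, genome build and strandedness are not given in the sources used here, so reads of overlapping or antisense genes cannot be told apart. Of the gene identifiers, 96.52% were found in GENCODE release 29 on GRCh38, and all 78 member genes overlapped their entry. Coordinates are those of the deposited table.

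Expected counts were rounded (3.81% were not whole), and TMM scaling and the filter filterByExpr kept 16213 genes. The test was the two-sided quasi-likelihood F test of edgeR 4.0.16 (R 4.3.3), in a single fit of group means over the 9 libraries, with Benjamini-Hochberg adjustment over all genes tested and calls at 0.05. CPM are TMM-normalised, and intervals are at 95%. The floor of 3 counts covers counting error only. Count per TPM was taken for genes with at least 1 TPM and 20 counts in every library. Promoters came from RefSeq, where 37 of 50 genes matched, 11 of them with several starts, of which the one nearest to the deposited gene start was used.

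Alternatives were RLE scaling, DESeq2 1.42.0, limma 3.58.1 on log2(TPM + 1), other filters, fitting only the groups compared, a replicate block and leaving out each library. Scripts were tested on simulated data. The members, the gene lists and the tests were chosen with earlier results of these data known. Values in every library were given for the 16 members with the smallest adjusted p in S239D against WT, the member of highest TPM in each family and their described partner chains. From each related list the 3 called genes of largest fold were named. Of these members 1 is counted but not reported here by name. FN1 and NID1, and other members whose call changed, were named after their values were seen.

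Same-numbered libraries were checked for pairing by the correlation of their deviations from the group means. It was -0.0087 to 0.0102 for S239D with WT and 0.0147 to 0.0914 for S239A with WT, and 0.1 to 0.251 for S239D with S239A, where libraries of unlike number also reached 0.15. The labels give no source of a pairing.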

Additional observations from a re-analysis of the deposited data

How the results depend on the processing

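Counts of called members kept within 1.5 times under most settings. Leaving out each library in turn gave 8 to 9 higher and 11 to 16 lower in S239D against WT, 0 and 0 in S239A against WT, and 8 to 9 higher and 19 to 23 lower in S239D against S239A. Limma on log2(TPM + 1) gave 6 lower (15 by edgeR) in S239D against WT and 10 lower (23 by edgeR) in S239D against S239A, and kept 14 of 24 and 16 of 32 calls. It tested 42 of the members. Calls on members it did not test are counted as not kept. These were COL9A1 and COL4A6 against WT, and COL9A1, ITGB8, ITGA4, COL24A1 and COL8A2 against S239A. Of the genes called higher against WT, limma lost only COL11A2, and it gained LAMB2. By limma more members thus rose than fell against WT, while more still fell against S239A. In S239A against WT, DESeq2 called 2 higher and the setting without S239A replicate 2 and S239D replicate 2, chosen after seeing the data, 7. The cause was not tested. In S239D against S239A, LAMB2 turned to 0.33 with limma (adjusted p = 0.138) and LAMA5 to 0.029 (adjusted p = 0.935).

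A fit with the replicate block gave 9 higher and 15 lower in S239D against WT, where COL4A6 was lost (adjusted p = 0.0544) and ITGA2 gained (0.00762), 0 and 0 in S239A against WT, and 9 and 23 in S239D against S239A, where all 32 calls were kept. The numbers were not taken to pair the libraries.

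Beside those given above, calls in S239D against S239A that rest on single libraries are ITGB7, lost without any of the 6 libraries compared (adjusted p = 0.051 to 0.102), ITGB8 (without S239A replicates 2 and 3 and S239D replicates 1 and 3, 0.081 to 0.14), ITGA4 (without S239A replicates 1 and 2 and S239D replicate 3, 0.0733 to 0.122), COL9A1 (without S239A replicate 1 or S239D replicate 1, 0.122 and 0.0882) and COL11A2 (without S239A replicates 1 and 2 and S239D replicate 1, 0.0562 to 0.104). Calls gained were COL21A1 without S239D replicate 2 (0.0395), COL6A2 without S239D replicate 1 (0.016) and COL4A3 without S239A replicate 2 (0.0273). Without S239A replicate 2 and S239D replicate 2 together, COL21A1 (0.0201) and COL4A3 (0.0428) were gained and ITGB7 (0.123) was lost. Depth limits the genes near 1 CPM, where a library held about 10 counts or fewer.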

Other observations

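Of the 28 genes of these families under 0.5 TPM, 6 had enough counts to be tested. ITGA10, a collagen receptor chain known from cartilage, was higher in S239D than in WT (1.58, adjusted p = 0.0184) and than in S239A (2.21, adjusted p = 0.00336) by edgeR's test. ITGB6, an epithelial partner of ITGAV, was lower in S239D than in S239A (-2.52, adjusted p = 0.0128). COL3A1, COL4A4, COL5A1 and COL25A1 were called in no comparison. With a threshold of 1 TPM in place of 0.5, 39 genes would have been described.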
